A study of Mus musculus with 18 samples.

Results

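Alveolar cells of the mouse mammary gland were compared between lactation and the end of pregnancy. Cells came from 4 single-cell RNA libraries of FVB/NJ mice, each labelled as mammary epithelium: 2 libraries of day 18.5 of pregnancy, F4 and B4, and 2 of day 10 of lactation, F11 and D6. The labels give no genotype, treatment or age for them, and stage is the only labelled difference. The study's methods describe glands pooled from several mice and a sort that gates out cells bearing TER-119 (erythroid), CD31 (endothelial) or CD45 (immune). A cell was kept when it had at least 500 detected genes, under 20% mitochondrial UMIs (unique molecular identifiers, the counted molecules), more UMIs of the luminal keratins Krt8 and Krt18 than of the basal keratins Krt5 and Krt14, and at least 3 UMIs over 6 alveolar genes (Elf5, Plet1, Trf, Mfge8, Xdh and Btn1a1). This left 15339 of the 38961 barcodes of the 4 libraries, and of 149371 barcodes in the whole series: 6242 cells of F4, 2629 of B4, 3022 of F11 and 3446 of D6. The 2 libraries of day 12.5 of pregnancy, H and G, gave 11201 cells by the same rule. They entered the fit to add to the estimate of spread between libraries, and were not a side of the comparison. They also entered the scaling between libraries and the filter that chose the genes tested, which numbered 12857 with only the 4 libraries. Each library counted as 1 sample, whatever its number of cells, and the animals within a pool cannot be told apart.

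Alveolar cells are the milk-secreting cells of the gland. They descend from luminal progenitors, begin to make caseins and lipid droplets during pregnancy under prolactin, the receptor-linked kinase JAK2 and the transcription factor STAT5, and are released into full secretion around birth when progesterone falls. In lactation they make lactose in the Golgi, release casein micelles by exocytosis, bud milk fat globules from the apical membrane, and move calcium, zinc, phosphate and iodide into milk. The comparison asks in which of these programmes transcript levels differed between the end of pregnancy and established lactation.

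The labels were first set against known markers. Epithelial markers (Epcam, Cldn3, Cldn7, Cdh1, Krt7, Krt19) summed to 2252 and 1961 scaled CPM in F4 and B4 and to 2231 and 2235 in F11 and D6, and none of the 6 was called between stages. Scaled CPM are UMIs summed over the chosen cells of a library, as counts per 1e6 UMIs outside 9 milk genes, corrected by TMM (a trimmed-mean scaling between libraries); levels in non-epithelial and basal cells are given as CPM on the same base without TMM, and statements that a gene stood above or below those cells compare CPM without TMM on both sides. Of 10 further alveolar markers not used to choose cells, 6 were higher in lactation (60%, against 7.84% of all genes) and none lower (against 5.07%). Of these 6, Fabp3, Slc34a2 and Slc30a2 were not called in the fit without cells holding markers of other cell types, described below. The lactation libraries also differed from the pregnancy libraries in quality. Only 49.1% of F11 barcodes and 68.3% of D6 barcodes passed the limits on genes and mitochondrial UMIs, against 95.1% in F4 and 90.2% in B4, and the chosen cells held a median of 2101 and 4039 UMIs outside the milk genes in F11 and D6 against 4214.5 and 7629 in F4 and B4. Between 10 and 27 barcodes were shared by any pair of the 4 libraries.

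UMIs of marker genes of other cell types were frequent among the lactation cells. At least 2 UMIs of immune, endothelial, fibroblast, adipocyte or erythroid markers were found in 68.9% of the chosen cells of F11 and 88.4% of D6, against 7.24% of F4 and 9.28% of B4. The haemoglobin gene Hbb-bs had 0 UMIs in the chosen cells of F4 and of B4, which allows at most 0.105 and 0.145 scaled CPM, but 411 and 348 scaled CPM in F11 and D6, and 4 of 5 erythroid markers were called higher (adjusted p under 0.05 over all genes, as below). Kdr, an endothelial receptor, was at 0.383 and 1.6 scaled CPM in F4 and B4 and at 22.3 and 27.5 in F11 and D6, where non-epithelial cells of the same libraries held 701 and 806 CPM. All 6 endothelial, 5 of 8 immune (62.5%), 7 of 8 adipocyte (87.5%), 2 of 8 mature luminal (25%) and 1 of 6 fibroblast markers (16.7%) were called higher in lactation. The erythroid share was 80%, and 7.84% of all genes were called higher. The adipocyte list summed to 48.5 and 56.2 scaled CPM in F4 and B4 and to 2475 and 2546 in F11 and D6. Fabp4 made up most of the lactation sums. It also made up most of the list's 24540 and 23690 CPM in non-epithelial cells of F11 and D6. The list's sum thus does not single out adipocytes. Its genes Cfd, an adipocyte-secreted protease, and Retn, an adipocyte hormone, were above their level in non-epithelial cells: Cfd was at 613 and 697 scaled CPM in the alveolar cells of F11 and D6 and at 182 and 377 CPM in non-epithelial cells, after 2 and 1 UMIs in all alveolar cells of F4 and B4. The non-epithelial cells were chosen by immune, endothelial and fibroblast markers and not by adipocyte markers, so adipocytes as such were not among the cells compared. A minority of the non-epithelial cells also met the alveolar rule and counted in both classes. The summed level of basal markers was lower in lactation. Krt5 and Krt14 belong to the rule that chose the cells, and the other 7 summed to 2177 and 1185 scaled CPM in F4 and B4 and to 740.5 and 165.6 in F11 and D6. Of these 7, the oxytocin receptor gene Oxtr and Trp63 were called lower, against 5.07% of all genes. The defining markers Hbb-bs, Hbb-bt, Adipoq, Fcer1g and Ptprc were at or near 0 in late pregnancy. The part of these transcripts in other results was not tested, so each gene below was also set against non-epithelial and basal cells of the same libraries, and each list against a fit without cells that held 2 or more such marker UMIs, which left 939 cells of F11 and 401 of D6. The markers for leaving out cells included Fabp4, Cfd and Retn. How many cells reached 2 marker UMIs through Fabp4 alone was not counted. The kept cells held a median of 1894 and 2229 UMIs outside the milk genes in F11 and D6, against 2101 and 4039 in all chosen cells. Their summed UMIs outside the milk genes were 2034579 and 1129264, against 7137953 and 14402598. Whether calls lost in this fit came from fewer counts or from RNA of other cells was not tested.

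Over all genes, 1083 of 13811 genes tested (7.84%) were higher in lactation and 700 (5.07%) were lower, at an adjusted p under 0.05 in edgeR's quasi-likelihood test, hereafter called. The median log2 change of all genes was -0.04. The libraries of the stages did not overlap for any called gene, nor for 54.5% of all genes tested. Without TMM factors the median of all genes shifted to -0.19 and the split became 929 higher and 1131 lower, so a change within that shift has no settled direction. Of the called genes, 399 of the rises (36.8%) stood above both non-epithelial and basal cells in F11 and in D6, and 233 of the falls (33.3%) stood above both in F4 and B4. A further 353 rises (32.6%) were at under 20% of the non-epithelial level in both lactation libraries, and 105 falls (15%) were at under 20% of the basal level in both pregnancy libraries. The same shares over all genes tested were not computed, so these describe the called genes only. The called genes were also picked by their level in these same alveolar cells. Without the cells with other markers, 299 genes rose and 110 fell, 360 of the 1783 calls were kept, and 16 reversed in sign. Leaving out F4 gave 171 rises and 115 falls, and leaving out B4 gave 226 and 86. Of 177 called genes selected for naming, 121 were not called without F4, 117 without B4, 11 without F11, 42 without D6 and 88 without the cells with other markers, where a further 6 were not tested.

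**Figure D1:**
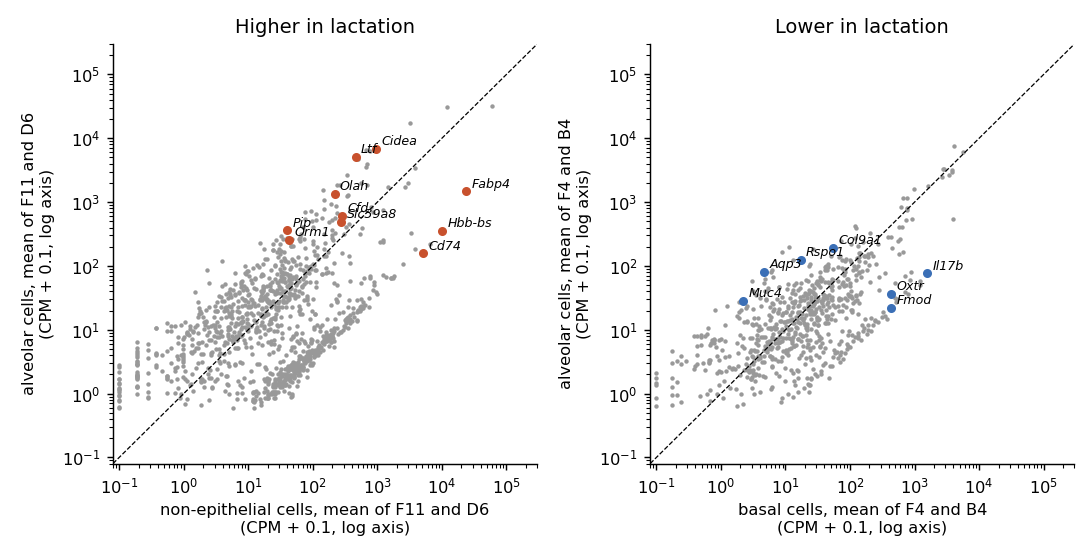
Level of each called gene in alveolar cells (vertical axis, CPM plus 0.1, log scale) against other cells of the same libraries (horizontal axis, CPM plus 0.1, log scale), each the mean of 2 libraries without TMM factors, with the milk genes and the genes that chose the cells left out and a dashed line at equality. Left, the genes higher in lactation against non-epithelial cells of F11 and D6: Hbb-bs, Cd74 and Fabp4 lie in a band far below the line, and Pip, Ltf, Olah and Cidea lie above it. Right, the genes lower in lactation against basal cells of F4 and B4: Il17b, Fmod and Oxtr lie below the line, and Muc4, Aqp3, Rspo1 and Col9a1 above it.

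Milk protein genes made up a far larger share of the transcripts in lactation. The 9 milk genes (Csn1s1, Csn1s2a, Csn1s2b, Csn2, Csn3, Wap, Lalba, Glycam1 and Wfdc18) took 34.7% and 36.2% of the UMIs in F4 and B4 and 75.3% and 79.1% in F11 and D6. The difference of the stage means was 41.8 percentage points, with 35.4% ± 1.08 in late pregnancy and 77.2% ± 2.66 in lactation (SD, n = 2 libraries each). The libraries did not overlap, and the two-sided exact permutation test over 4 libraries gave p = 0.333, the smallest value that 2 against 2 can reach. The share was 68.3% in lactation without the cells with other markers, and 36.2% in late pregnancy. The same 9 genes took 32.6% and 21.3% of the UMIs of non-epithelial cells in F11 and D6 and 5.28% and 3.28% in F4 and B4.

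**Figure D2:**
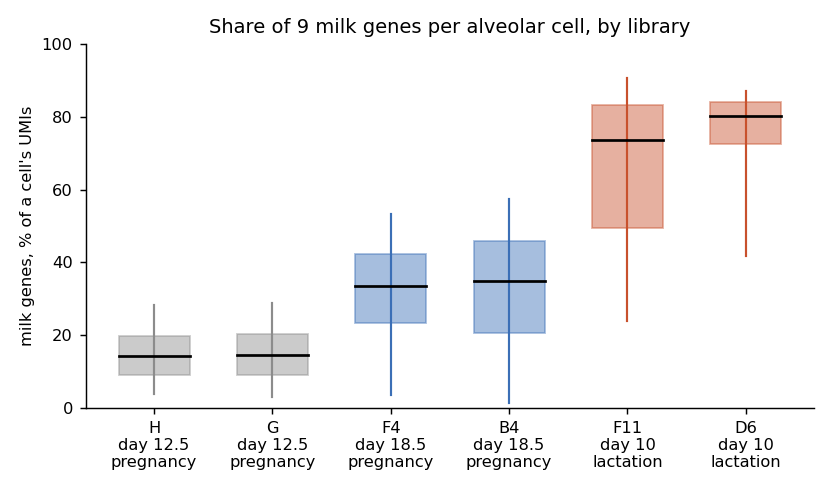
Share of each alveolar cell's UMIs (vertical axis, percent) taken by the 9 milk genes, for the libraries of day 12.5 and day 18.5 of pregnancy and day 10 of lactation. Bars span the middle 50% of cells, black lines mark medians and thin lines run from the 5th to the 95th percentile: medians are 33.5% and 34.9% in F4 and B4 and 73.7% and 80.2% in F11 and D6.

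Within single cells, milk genes took more than 50% of the UMIs in 9.39% and 16.6% of the cells of F4 and B4 and in 74.3% and 92.9% of those of F11 and D6. F11 held a wider range of cells than D6, with its lower quartile at 49.4% against 72.4%.

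The casein genes lie together on chromosome 5, and the 250 bases before the start of Csn1s1 and Csn2 each hold a match to TTCNNNGAA, the palindromic letters that STAT5 is known to bind. These promoters are shown because they belong to milk genes that rose, and Pip because it was among the largest rises outside the milk genes. Capitals mark the match, which begins at position -100 in Csn1s1 and -93 in Csn2, counted from the gene's start, while Pip holds 2 matches. The sequences are from RefSeq on GRCm38.p6, 5′ to 3′ on the gene's strand.
Csn1s1, chr5:87665958-87666207, plus strand: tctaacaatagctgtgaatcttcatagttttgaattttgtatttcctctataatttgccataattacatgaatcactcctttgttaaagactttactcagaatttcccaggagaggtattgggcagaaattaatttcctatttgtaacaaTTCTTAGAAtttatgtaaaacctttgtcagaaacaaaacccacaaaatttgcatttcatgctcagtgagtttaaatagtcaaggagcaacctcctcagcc
Csn2, chr5:87699426-87699675, minus strand: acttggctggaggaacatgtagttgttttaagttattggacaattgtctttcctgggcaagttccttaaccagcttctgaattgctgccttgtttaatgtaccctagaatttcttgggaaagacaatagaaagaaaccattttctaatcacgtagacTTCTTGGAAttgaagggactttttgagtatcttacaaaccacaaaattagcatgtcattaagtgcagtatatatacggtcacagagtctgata
Pip, chr6:41847299-41847548, plus strand: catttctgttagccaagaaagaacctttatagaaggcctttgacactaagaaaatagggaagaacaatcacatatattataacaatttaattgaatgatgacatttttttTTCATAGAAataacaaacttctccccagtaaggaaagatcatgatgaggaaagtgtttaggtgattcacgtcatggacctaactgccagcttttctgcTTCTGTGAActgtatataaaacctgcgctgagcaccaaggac
The letters occurred in 7.02% of all 32851 promoter windows of 250 bases, and in 3 of the 7 milk genes that matched the table. The windows of Wap, Lalba and Csn1s2a held none.

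The 9 milk genes differed in the size of their change. Csn1s2b, the gene of a minor casein, was at 368 and 648 scaled CPM in F4 and B4 and at 422350 and 579270 in F11 and D6, a log2 change of 9.95 ± 0.47 (SE; adjusted p = 0.00019). It was found in 37.7% and 49.6% of the cells of F4 and B4 and in every cell of both lactation libraries, non-epithelial cells included. At day 12.5 of pregnancy it was at 19.2 and 16.2. Wap, the whey acidic protein gene, rose by 3.90 ± 0.30 on the log2 scale, from 43231 and 54693 to 594850 and 870450. Csn1s1 and Csn3 each rose by 3.01, Lalba (alpha-lactalbumin, the lactose synthase cofactor) by 2.69, Csn2 by 2.40 and Csn1s2a by 2.12. Wfdc18 rose least of the 8 called, by 1.56 ± 0.30. Glycam1, a mucin-like whey protein, was at 50399 and 57007 in late pregnancy and at 64959 and 63185 in lactation, a log2 difference of 0.25 ± 0.21 that was not called (adjusted p = 0.45). The 8 calls became 7 without F4, 7 without D6 and 6 without B4, and 7 without the cells with other markers, and 1 when 3 adult libraries were added to the fit.

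**Figure D3:**
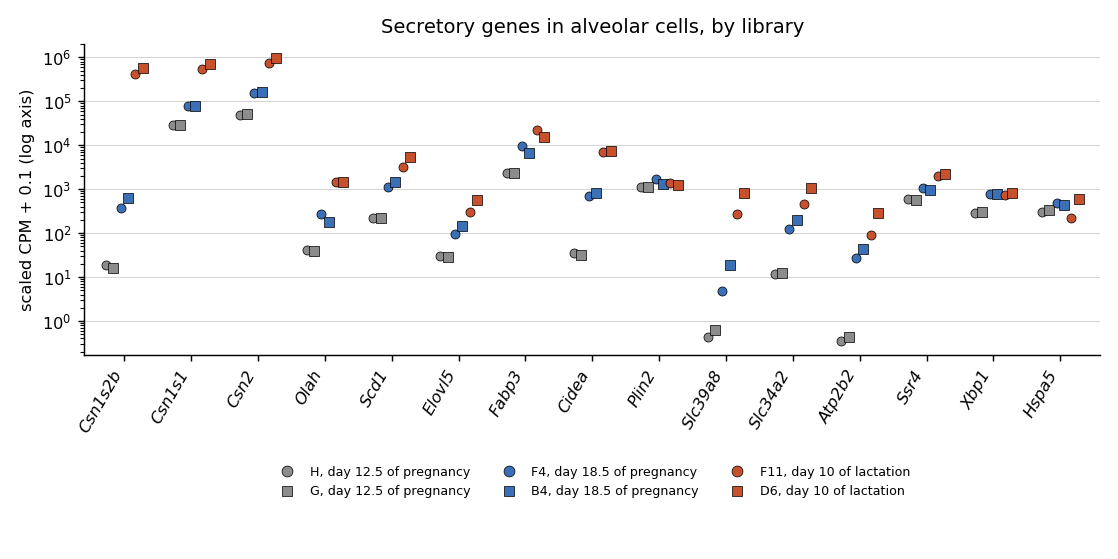
Scaled CPM plus 0.1 (vertical axis, log scale) of 15 genes of milk synthesis and secretion in each of 6 libraries, circles and squares standing for the libraries of a stage. Csn1s2b, Olah, Cidea and Slc39a8 lie higher in both lactation libraries than in both libraries of day 18.5 of pregnancy, while Plin2, Xbp1 and Hspa5 were not called.

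Genes of fatty acid synthesis rose in part. Of 22 members, 9 rose (40.9%, against 7.84% of all genes) and 1 fell (4.55% against 5.07%), with a median log2 change of 1.24 against -0.04 over all genes. The median was 0.22 without D6, 1.73 without F11 and 0.72 without the cells with other markers. Olah, the thioesterase that ends fatty acid chains early and so gives milk its medium-chain fat, was at 270 and 175 in F4 and B4 and at 1492 and 1444 in F11 and D6, a log2 change of 2.72 ± 0.27 (adjusted p = 0.0024). At day 12.5 of pregnancy Olah was at 41 and 39. Acacb, an acetyl-CoA carboxylase, rose by 2.23, Fads2, a desaturase, by 1.98 and Elovl5, an elongase, by 1.88. Scd1, the stearoyl-CoA desaturase, was at 1138 and 1427 in late pregnancy and at 3197 and 5392 in lactation (log2 change 1.74 ± 0.30, adjusted p = 0.014). The mitochondrial citrate carrier Slc25a1, Elovl6, the malic enzyme gene Me1 and the lipogenic regulator Thrsp also rose, by 1.69, 1.67, 1.60 and 1.33, and were not called without F4, without B4 or without the cells with other markers. Elovl6, Me1 and Thrsp were not called without D6 either, where the log2 change of Elovl6 was 0.73 (adjusted p = 0.06). Scd1 and Elovl5 also lost their calls without F4, without B4 or without the cells with other markers, and Acacb without F4 or without B4. Fads2 lost its call without B4, where its log2 change was 1.91.

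The enzymes at the centre of the pathway were not called. Fasn, the fatty acid synthase, was at 962 and 1126 in F4 and B4 and at 1206 and 1961 in F11 and D6. Acaca, the main cytosolic acetyl-CoA carboxylase, was at 460 and 476 against 284 and 601, with overlapping libraries, and the regulator Srebf1 was at 132 and 102 against 60.8 and 101. Acly, ATP citrate lyase, was at 435 and 421 against 475 and 1215, with no overlap and no call. Scap, the sterol sensor that escorts SREBP proteins, fell by 0.82. D6 was above F11 for all of the 9 genes that rose except Olah. Without D6 there were 6 rises, without F11 15, without F4 2, without B4 1, and without the cells with other markers 3. Olah kept its call in each of these 5 fits.

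In cholesterol synthesis and uptake none of 23 members was called in either direction, against 7.84% higher and 5.07% lower of all genes. The median log2 change was 0.28. Without the cells with other markers none was called either, and the median was 0.09. Idi1 and Cyp51 are members for which the lactation libraries lay on either side of late pregnancy. Idi1, an isomerase of the pathway, was at 27.6 and 32.6 in F4 and B4, at 6.89 in F11 and at 47.7 in D6, and Cyp51, a demethylase, was at 21.1 and 21 against 9.89 and 42.2. Without F11 10 members rose, with a median of 0.61, and without D6 8 fell, with a median of -0.69.

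Of 11 milk fat globule genes 2 rose (18.2%, against 7.84% of all genes). Cidea, the lipid droplet protein of the milk fat globule, was at 715 and 826 scaled CPM in F4 and B4 and at 7036 and 7580 in F11 and D6 (log2 change 3.25 ± 0.23, adjusted p = 0.00091). It was at 1363 and 521 CPM in non-epithelial cells of F11 and D6. Plin2, the droplet coat protein, was at 1674 and 1283 against 1416 and 1223 and was not called. The other rise, Cidec, is also on the adipocyte list and had 9.14 and 22.2 scaled CPM in F11 and D6 beside 4.07 and 14.7 CPM in non-epithelial cells. The globule genes Muc1 and Muc15, mucins of its membrane, were at 95.2 and 135 against 172 and 322 and at 831 and 984 against 870 and 1932, neither of them called. The globule calls numbered 1 without F4, 1 without B4, 6 without F11 and 1 without the cells with other markers.

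Among 23 genes of fatty acid uptake and triglyceride assembly, 7 rose (30.4%, against 7.84% of all genes) and 2 fell (8.7% against 5.07%). Fabp3, the fatty acid binding protein of mammary epithelium, was at 9817 and 6758 against 22135 and 15528 (log2 change 1.18 ± 0.28, adjusted p = 0.036), and lost its call without any 1 of F4, B4 and F11, at adjusted p values of 0.072, 0.12 and 0.075, and without the cells with other markers (log2 change 0.62, adjusted p = 0.339). Slc27a3, of the fatty acid transport protein family, rose from 2.23 and 1.99 to 19.2 and 29.6 (log2 change 3.53) and kept its call in all 18 alternative fits. Dgat1 and Dgat2, which complete triglyceride, rose from 29 and 24 to 45.6 and 52.4 and from 3.56 and 3.29 to 10.8 and 23.2. Neither was called without F4 or without B4, nor without the cells with other markers, where the log2 change was 0.52 for Dgat1 (adjusted p = 0.208) and 0.59 for Dgat2 (adjusted p = 0.499). The rises of Fabp4, Fabp5 and Cd36 stood below the non-epithelial level, as in Fabp4 with 1687 and 1500 scaled CPM against 24264 and 22995 CPM. The acyl-CoA synthetases Acsl3 and Acsl4 fell, Acsl3 from 36.8 and 25.2 to 8.24 and 11.2. The lipoprotein lipase Lpl (1127 and 1728 against 1334 and 2422) and Acsl1 (933 and 906 against 883 and 1354) were not called. Rises numbered 3 without F4, 3 without B4 and 3 without the cells with other markers.

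Of 14 genes of lactose synthesis and glucose supply other than Lalba 1 rose and 1 fell, 7.14% in each direction against 7.84% and 5.07% of all genes. B4galt1, the galactosyltransferase that forms lactose synthase with alpha-lactalbumin, was at 710 and 854 in F4 and B4 and at 1077 and 1085 in F11 and D6, a difference of 0.47 ± 0.21 that was not called. The glucose transporter Slc2a1 was at 104 and 76.9 against 71.9 and 92.8. Hk2, a hexokinase, rose from 59.6 and 70.1 to 123 and 198, and Gpi1, a glycolytic isomerase, fell from 135 and 128 to 56.8 and 53.4 (log2 change -1.26 ± 0.18, adjusted p = 0.0082). Without the cells with other markers Hk2 was not called (log2 change 1.32, adjusted p = 0.113) and Gpi1 was. Hk2 was not called without F4, B4 or D6, at adjusted p values of 0.17, 0.13 and 0.076. Gpi1 was not called without F4, at 0.051.

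Of 24 genes of mineral transport 6 rose (25%, against 7.84% of all genes) and 1, the carbonic anhydrase Car2, fell (4.17% against 5.07%). Slc39a8, a zinc and manganese importer, was at 4.6 and 18.7 scaled CPM in F4 and B4 and at 268 and 806 in F11 and D6 (log2 change 5.54 ± 0.82, adjusted p = 0.0085). Its level was 226 and 327 CPM in non-epithelial cells and 0.323 and 0.509 in alveolar cells of day 12.5. Atp2b2, the plasma membrane calcium pump that carries calcium into milk, rose from 27.6 and 43.6 to 89.9 and 290, and the phosphate transporter Slc34a2 rose from 123 and 201 to 452 and 1078. Slc30a2, the zinc exporter whose loss gives zinc-poor milk, rose from 9.34 and 14.7 to 33.4 and 43.7. Pthlh, the parathyroid hormone-related protein through which the lactating gland draws on bone calcium, rose from 4.57 and 3.29 to 65.9 and 92.5 (log2 change 4.33 ± 0.35, adjusted p = 0.0013) and kept its call in all 18 alternative fits. Car6, another carbonic anhydrase, completed the rises, from 5.12 and 4.89 to 11.8 and 10.6. The Golgi calcium pump Atp2c1, the calcium channel Orai1 and the iodide transporter Slc5a5 were not called, and Slc5a5 was at 17 and 20.6 against 17.5 and 21.7. There was 1 rise without F4, there were 3 without B4, and 2 without the cells with other markers. Slc39a8, Atp2b2, Slc34a2, Slc30a2 and Car6 were not called without F4, where their log2 changes were 4.84, 2.12, 1.93, 1.40 and 1.19. Without the cells with other markers, Atp2b2, Slc34a2, Slc30a2 and Car6 were not called either. Their adjusted p values there were 0.096, 0.0589, 0.153 and 0.169.

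Amino acid transporters were mixed, with 4 of 20 higher (20%, against 7.84% of all genes) and 2 lower (10% against 5.07%). Slc7a4, a member of the cationic amino acid transporter family, rose from 15.4 and 17.8 to 45 and 48.1. It was called without any 1 of the 4 libraries but not without the cells with other markers (log2 change 0.98, adjusted p = 0.0675). Slc7a2, Slc7a11 and Slc7a5, transporters of cationic amino acids, cystine and large neutral amino acids, rose by 1.58, 1.48 and 0.89. Slc43a2 fell from 46.6 and 58.1 to 22.5 and 24.3, and the glutamate transporter Slc1a1 from 8.37 and 7.7 to 2.7 and 2.57. Rises numbered 1 without F4, 1 without B4 and 1 without the cells with other markers.

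Of 40 genes of endoplasmic reticulum (ER) translocation and folding 3 rose (7.5%, against 7.84% of all genes) and 1 fell (2.5% against 5.07%), and the median log2 change was -0.08. The chaperone Hspa5 was at 498 and 431 in F4 and B4 and at 217 and 587 in F11 and D6, and Calr, calreticulin, was at 695 and 531 against 315 and 436, neither of them called. Ssr4, a subunit of the translocon-associated complex, rose from 1069 and 955 to 2027 and 2233, Sec11c, a signal peptidase subunit, from 293 and 240 to 511 and 604, and Sec62 from 130 and 162 to 530 and 438. Sec61a1, the channel itself, fell from 263 and 223 to 99.5 and 127. In the 32 genes of Golgi and vesicle traffic 1 rose (Kdelr3) and 1 fell (Rab1b), 3.12% in each direction against 7.84% and 5.07% of all genes. Neither was called without F4, without B4, without D6 or without the cells with other markers, where the log2 change of Kdelr3 was 0.57 (adjusted p = 0.552). ER rises numbered 0 without F4, where no ER gene fell either, 1 without B4, and 1 without the cells with other markers. Without D6 4 ER genes fell.

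Of 19 regulators of the unfolded protein response 3 rose (15.8%, against 7.84% of all genes) and 1 fell (5.26% against 5.07%). Xbp1, a central transcription factor, was at 767 and 773 against 756 and 820, and Ddit3 at 37.1 and 23.9 against 35.4 and 17. Neither was called. Chac1, Trib3 and Asns, targets of the transcription factor ATF4, rose, Chac1 from 4.04 and 4.5 to 28.9 and 18.2 (log2 change 2.45 ± 0.27, adjusted p = 0.0033), while Atf4 itself, not called, was at 318 and 200 against 310 and 282. Atf6b fell by 0.87. Without the cells with other markers Trib3, Asns and Atf6b were not called (adjusted p = 0.0672, 0.194 and 0.152), while Chac1 was. No regulator was called without F4 or without B4. Among cytoplasmic ribosomal protein genes 7 of 83 fell (8.43%, against 5.07% of all genes) and 1, Rps27l, rose (1.2% against 7.84%), with a median of -0.38. Rplp0 fell from 8624 and 6291 to 3510 and 2778 and Rpl3 from 3402 and 2756 to 1285 and 1258. Without the cells with other markers Rps27l and Rplp0 were not called (adjusted p = 0.218 and 0.067), while Rpl3 was (0.0473). No ribosomal gene was called when the mid-pregnancy libraries were left out of the fit, 16 fell without TMM factors, 1 and 4 fell without F4 and B4, and 2 without D6. Of 91 nuclear genes of the respiratory chain 6 rose (6.59%, against 7.84% of all genes) and none fell, with a median of 0.33. Ndufs7 and Ndufv3, subunits of complex I, rose from 187 and 123 to 355 and 296 and from 190 and 335 to 507 and 972. The other 4 were the assembly factors Ndufaf2 and Ndufaf8, Ndufa4l2, which was below its non-epithelial level, and Cox8b, which had 1 UMI in F4, 8 in B4, 20 in F11 and 162 in D6. None was called without F4, without B4 or without the cells with other markers, where the median was 0.066.

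Of 34 genes of prolactin, STAT5 and insulin signalling 3 rose and 3 fell, 8.82% in each direction against 7.84% and 5.07% of all genes, with a median of -0.17. The prolactin receptor Prlr was at 145 and 149 against 222 and 189, Stat5a at 83.8 and 85.4 against 46.3 and 71.6, Stat5b at 34.2 and 43.4 against 21.7 and 26.1, and the STAT5 target Cish at 126 and 103 against 57.8 and 99.1, none of them called. Irs1, an insulin receptor substrate, rose from 16 and 23.3 to 42.3 and 50.6, the epithelial transcription factor Ehf from 114 and 85 to 178 and 225, and the feedback inhibitor Socs2 from 35.6 and 39.7 to 75.1 and 73.9. The growth hormone receptor Ghr fell from 101 and 85.9 to 44.2 and 46.6, and Ptprf, a receptor phosphatase, from 137 and 135 to 74 and 83.6. Tfap2c, a transcription factor, fell from 67.7 and 61.7 to 23.5 and 23.2 (log2 change -1.47 ± 0.18, adjusted p = 0.0045), and kept its call in all 18 alternative fits. It stood at 265 and 292 CPM in basal cells of F4 and B4. Without the cells with other markers Irs1, Ehf and Ptprf were not called (adjusted p = 0.111, 0.108 and 0.113), while Socs2, Ghr and Tfap2c were. Rises numbered 0 without F4 and 1 without B4, and falls 2 and 1.

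Antimicrobial and acute phase genes rose in part. Of 28 members 11 rose (39.3%, against 7.84% of all genes) and none fell (against 5.07%), with a median log2 change of 2. Without F11 the median was 0.79, with 12 rises and 3 falls among 27 members tested. Ltf, the iron-binding milk protein lactoferrin, was at 405 and 405 scaled CPM in F4 and B4 and at 4695 and 6273 in F11 and D6 (log2 change 3.76 ± 0.25, adjusted p = 0.0008). It was at 119 and 126 at day 12.5 of pregnancy. It was detected in 55.8% and 63.9% of the alveolar cells of F4 and B4 and in 88.3% and 96.5% of those of F11 and D6, against 39.7% and 19.2% of non-epithelial cells in the lactation libraries. Ccl28, the chemokine that draws IgA-producing plasma cells to the gland, rose from 1.6 and 6.34 to 395 and 162 (log2 change 6.16 ± 0.75, adjusted p = 0.0045), with 40.7 and 12.7 CPM in non-epithelial cells. Orm1, an acute phase glycoprotein, rose from 1.78 and 2.57 to 432 and 116. It was not called without F4 (adjusted p = 0.059) or without B4 (0.055). Pigr, the receptor that carries IgA into milk, was at 174 and 384 against 536 and 1124, with no overlap and no call (adjusted p = 0.066).

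The lactation libraries differed from each other in this group. The serum amyloid genes Saa1, Saa2 and Saa3 were at 9418, 9149 and 2907 scaled CPM in F11 and at 97.3, 46.2 and 17.3 in D6, and in late pregnancy at 258 and 206, 317 and 188, and 31 and 12.2. F11 was thus the highest and D6 the lowest of the 4 libraries for Saa1 and Saa2, and none of the 3 was called. Saa1 was found in 89.6% of the alveolar cells of F11 and in 9.08% of those of D6, and in 68% and 0.84% of non-epithelial cells. S100a8, a neutrophil-rich calcium-binding protein, was at 538 in F11 and 36 in D6. Lcn2, the siderophore-binding lipocalin, rose in both, from 1460 and 1334 to 10600 and 3284, and was not called without F4 (adjusted p = 0.149) or B4 (0.157). Nupr1, a stress-induced regulator, and the chemokine Cxcl1 rose and were called without any 1 of the 4 libraries. Cxcl2, Cd14, Tlr2 and Il1b stood below the non-epithelial level in at least 1 lactation library. Rises numbered 5 without F4, 5 without B4, 17 without D6 and 8 without the cells with other markers. Saa1 and Saa2, and Orm1 and Orm2, are close copies, so their reads may not be fully separable.

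**Figure D4:**
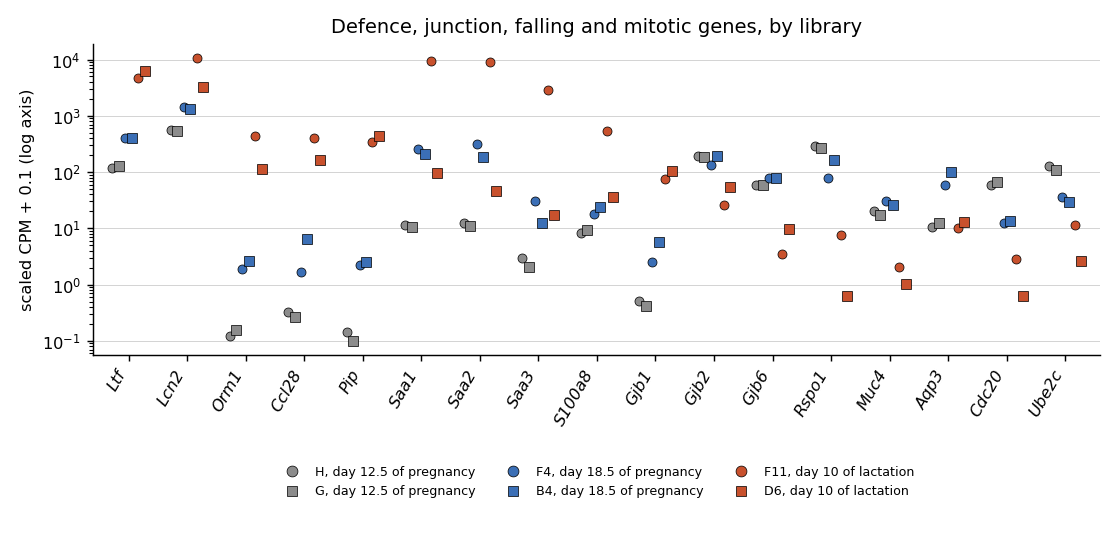
Scaled CPM plus 0.1 (vertical axis, log scale) of 17 genes of defence, cell junctions, mitosis and the largest falls in each of 6 libraries. Saa1, Saa2 and Saa3 are split within lactation (F11 at 9418 and D6 at 97.3 for Saa1), Gjb1 lies above and Gjb2 and Gjb6 lie below late pregnancy in both lactation libraries.

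Gap junction genes, the connexins, moved in both directions, with 1 of 7 higher (14.3%, against 7.84% of all genes) and 3 lower (42.9% against 5.07%). Gjb1 was at 2.37 and 5.62 scaled CPM in F4 and B4 and at 75.1 and 102 in F11 and D6 (log2 change 4.50 ± 0.42, adjusted p = 0.0019), with 12.2 and 7.64 CPM in non-epithelial cells. Gjb6 fell from 79.7 and 77.7 to 3.45 and 9.54 (log2 change -3.54 ± 0.40, adjusted p = 0.0035). Gjb2 fell from 133 and 190 to 25.8 and 54.4. At day 12.5 of pregnancy Gjb1 was at 0.416 and 0.311, Gjb6 at 58 and 58.3 and Gjb2 at 189 and 182. The calls of Gjb1 and Gjb6 were kept in all 18 alternative fits, and that of Gjb2 was not kept without F4 (adjusted p = 0.073) or without B4 (0.11). Of 20 tight junction genes only Pard6b was called, falling from 26.4 and 42.7 to 9.44 and 15.4. Falls were thus 5% of the list, against 5.07% of all genes, and no member rose, against 7.84%. Pard6b was not called without F4, without B4 or without the cells with other markers, with an adjusted p of 0.167 in the last fit. Cldn3, Cldn7 and Cldn8, claudins of the alveolar seal, were at 445 and 299 against 388 and 196, 314 and 242 against 251 and 278, and 131 and 151 against 138 and 299, none of them called.

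Genes of the cell cycle fell in part. Of 41 members 21 were lower in lactation (51.2%, against 5.07% of all genes), 20 were not called and none was higher, with a median log2 change of -1.21. Cdc20, the mitotic activator of the anaphase-promoting complex, was at 12.5 and 13.2 scaled CPM in F4 and B4 and at 2.7 and 0.53 in F11 and D6 (log2 change -3.22 ± 0.52, adjusted p = 0.012). Ube2c, its ubiquitin-conjugating partner, fell from 35.4 and 29.1 to 11.4 and 2.5, and Birc5, survivin, from 28.6 and 23.7 to 7.94 and 1.67. Ccnb1, a mitotic cyclin, fell by 2.96 and Cenpa, a centromeric histone, by 2.52 on the log2 scale. Late pregnancy was itself below day 12.5, where Cdc20 was at 59.3 and 66.1 and Ube2c at 127 and 108. Mki67 was at 17.2 and 30.9 against 10.9 and 12.9 and was not called, nor was Pcna, at 15.4 and 20.3 against 21.6 and 17. D6 was below F11 for Cdc20, Ube2c, Birc5, Ccnb1 and Cenpa. In sums over cells, fewer cycling cells and less transcript per cycling cell cannot be told apart. The falls numbered 5 without F4, 2 without B4, 33 without F11, 12 without D6, 6 without the cells with other markers and 7 in cells with at least 1000 genes, and there were none when 3 adult libraries were added to the fit. The median was -1.96 without F11 and -0.89 without D6. Cdc20 was not called without F4 (adjusted p = 0.084) or without B4 (0.08), and Ube2c likewise (0.17 and 0.14).

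Many mitotic promoters carry the letters TTTGAA, known as the cell cycle genes homology region, close to the start of transcription. They are shown in capitals for Cdc20 and Ube2c, as examples of cell cycle genes that fell, where they begin at position -18 and -29 (in Ube2c on the opposite strand, as TTCAAA).
Cdc20, chr4:118437344-118437593, minus strand: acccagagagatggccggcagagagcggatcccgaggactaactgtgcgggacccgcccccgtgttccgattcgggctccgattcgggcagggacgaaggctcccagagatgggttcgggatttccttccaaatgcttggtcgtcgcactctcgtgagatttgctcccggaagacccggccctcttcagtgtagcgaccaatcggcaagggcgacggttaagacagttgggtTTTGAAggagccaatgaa
Ube2c, chr2:164769679-164769928, plus strand: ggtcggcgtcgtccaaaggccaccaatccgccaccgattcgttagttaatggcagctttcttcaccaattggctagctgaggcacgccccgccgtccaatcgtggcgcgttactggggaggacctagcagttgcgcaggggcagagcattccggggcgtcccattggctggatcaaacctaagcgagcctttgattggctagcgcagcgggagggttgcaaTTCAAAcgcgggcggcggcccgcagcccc
On either strand these letters occurred in 16% of all windows and in 10 of the 33 cell cycle genes that matched the table (30.3%), and not in those of Ccnb1 and Birc5.

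Among inhibitors and cyclins Cdkn1a rose by 1.56, from 112 and 73.4 to 286 and 261, below the 1393 and 1028 CPM of non-epithelial cells. The other 18 of 19 were not called, so rises were 5.26% of the list, against 7.84% of all genes. In the circadian clock list only Per1 was called, falling from 82.8 and 74.5 to 43.5 and 48.1 (5.26% of the list, against 5.07% of all genes). Of 26 immediate early and heat shock genes Dusp1 rose (3.85%, against 7.84% of all genes) and Nr4a1, Egr2 and Fosl1 fell (11.5% against 5.07%). Tissue dissociation is known to induce genes of this kind. Without the cells with other markers Dusp1, Nr4a1 and Egr2 were not called (adjusted p = 0.0594, 0.115 and 0.0664), while Fosl1 was. The counts were 0 without F4 in this list, and 0 rises and 2 falls without B4. Neither Cdkn1a nor Per1 kept its call in every fit without 1 library. Without the cells with other markers Per1 was not called (adjusted p = 0.137) and Cdkn1a was.

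Growth factor and WNT genes moved in both directions. Rspo1, a secreted enhancer of WNT signalling, was at 79.6 and 163 scaled CPM in F4 and B4 and at 7.49 and 0.53 in F11 and D6 (log2 change -5.08 ± 0.94, adjusted p = 0.017), the largest fall under the naming rule. At day 12.5 it was at 291 and 271. It was not called without F4 (adjusted p = 0.081) or without B4 (0.102). Wnt5b fell from 38.6 and 42.9 to 11.5 and 12.3. Its call held without any 1 of the 4 libraries but not without the cells with other markers (log2 change -1.14, adjusted p = 0.0504). Egf, epidermal growth factor, rose from 2.3 and 4.99 to 48.3 and 117 (log2 change 4.53 ± 0.57, adjusted p = 0.0051), with 4.07 and 8.37 CPM in non-epithelial cells. It was not called without F4 (0.069) or B4 (0.055). The R-spondin receptor Lgr4 rose from 84.4 and 110 to 356 and 213. The list gave 2 rises (10.5%, against 7.84% of all genes) and 3 falls (15.8% against 5.07%) of 19. The last fall was Wnt10a, with 50 and 15 UMIs in F4 and B4 and 1 and 2 in F11 and D6. There were 0 rises and 1 fall without F4 and likewise without B4, 3 and 6 without F11, and 4 and 1 without the cells with other markers.

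Of 20 genes of the luminal progenitor state 7 rose (35%, against 7.84% of all genes) and 1, Rspo1, fell (5% against 5.07%), with a median log2 change of -0.11. Tspan8, a tetraspanin, rose from 2.23 and 2.71 to 41.5 and 71 (log2 change 4.52 ± 0.33, adjusted p = 0.00095) and kept its call in all 18 alternative fits. Lbp, which binds bacterial lipopolysaccharide, rose from 91.9 and 107 to 354 and 234. Sox9, a transcription factor, rose from 129 and 146 to 225 and 337, the vitamin D hydroxylase Cyp24a1 from 0.732 and 1.31 to 7.34 and 6.13, and Lurap1l from 26 and 30.4 to 50.7 and 44.9. Kit, the progenitor receptor, was at 12.2 and 27.7 against 15 and 9.69, and was not called. Basp1 and Hey1 rose and stood below the non-epithelial level. The list's rises numbered 1 without F4, 2 without B4 and 4 without the cells with other markers.

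Of 36 matrix and adhesion genes 4 rose (11.1%, against 7.84% of all genes) and 6 fell (16.7% against 5.07%). Timp1, an inhibitor of metalloproteinases, rose from 5.54 and 4.65 to 57.1 and 115 (log2 change 4.08 ± 0.36, adjusted p = 0.0017), above the 38 and 25.8 CPM of non-epithelial cells. The other rises, Mmp3, Fn1 and Adamts1, were far below those cells, as in Fn1 with 4.35 and 9.91 scaled CPM against 133 and 296 CPM, and without the cells with other markers the difference of Fn1 was reversed, at -0.55 on the log2 scale. Col9a1, a collagen of the fibril-associated group, fell from 179 and 194 to 54.6 and 56.3 (log2 change -1.75 ± 0.19, adjusted p = 0.003). Lamb3, Itga6 and Agrn, a laminin chain, an integrin and a basement membrane proteoglycan, fell and were at a higher level in basal cells, as did Col9a2, from 8.43 and 8.76 to 1.2 and 0.303 beside 121 and 144 CPM in basal cells. Spp1, osteopontin, was at 17939 and 16863 in F4 and B4 and at 15126 in F11, but at 2246.5 in D6, and was not called. Rises and falls numbered 1 and 2 without F4, 1 and 2 without B4, and 1 and 1 without the cells with other markers.

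Among 24 genes of apoptosis, lysosomes and involution, the regression that follows weaning, Tgfb2 fell from 53.6 and 53.3 to 15.3 and 8.93 and Tgfb3, which rises at weaning, from 51.8 and 120 to 21.6 and 32.4. Bak1 also fell, and Ctsz and Plau rose below their non-epithelial level. Without the cells with other markers Tgfb2 and Ctsz were called. Tgfb3 and Bak1 were not (adjusted p = 0.151 and 0.0703), and Plau was not tested. Called rises were 8.33% of the list, against 7.84% of all genes, and falls 12.5% against 5.07%. There were no rises and 2 falls without F4, and no calls without B4. In 26 antioxidant and metal-binding genes Gsta3, Gstp1 and Gstm1, glutathione transferases, rose (11.5%, against 7.84% of all genes) and none fell. Without the cells with other markers Gstp1 and Gstm1 were not called (adjusted p = 0.121 and 0.0622), while Gsta3 was. None of these transferases was called without F4 or without B4. Their log2 changes were 2.69, 2.33 and 1.66 without F4 and 2.64, 1.24 and 1.43 without B4. The metallothionein Mt1 was at 2816 and 6705 against 8750 and 10248 and was not called.

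Over all genes, listed or not, the 15 largest rises and the 15 largest falls were taken among 428 and 278 that were called, did not overlap and reached 20 scaled CPM in the higher stage. Of the largest rises, Hbb-bs, Hbb-bt, Igkc, Ccl3, Ccl4, C1qb and C1qc were each higher in non-epithelial cells than in alveolar cells of both lactation libraries. Igkc, an immunoglobulin light chain, was at 133 in F11 and 4.09 in D6, and was not called without F4 or without B4. Pip, the prolactin-induced protein secreted in milk and saliva, was at 2.09 and 2.37 scaled CPM in F4 and B4 and at 343 and 434 in F11 and D6 (log2 change 7.44 ± 0.37, adjusted p = 0.00019). It was at 42 and 38.2 CPM in non-epithelial cells and at 0.046 and 0 at day 12.5 of pregnancy. Its promoter, shown above, holds a pair of TTCNNNGAA matches, whose part in the rise was not tested. Lrat, the enzyme that esterifies retinol, had 6 UMIs in F4 and 1 in B4 and was at 49.9 and 41.2 scaled CPM in F11 and D6, beside 12.2 and 4.36 CPM in non-epithelial cells. Igf1, insulin-like growth factor 1, was at 1.25 and 0.872 in late pregnancy and at 87.1 and 213 in lactation (log2 change 7.12 ± 0.53, adjusted p = 0.0011), above the 65.1 and 54 CPM of non-epithelial cells. These 3 genes were called in all 18 alternative fits, including that without the cells with other markers, where the log2 change was 6.85 for Pip and 6.81 for Igf1. Orm2 and Clec12a completed the rises that stood above non-epithelial and basal cells together with Cfd and Retn, a comparison that did not include adipocytes, and were not called without F4 or B4.

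Among the genes named next by the same rule once restricted to those above other cells, a restriction added after the values were seen, Wfdc17 was at 55.3 and 46.8 in F4 and B4 and at 5429 and 4937 in F11 and D6. It is a relative of the milk gene Wfdc18, so reads may be shared. Ceacam10, a cell adhesion protein, rose from 28.3 and 27.4 to 846 and 733, and Sfrp2, a secreted WNT inhibitor, from 2.82 and 3.1 to 92.3 and 66.1. H2-Q1, a class I histocompatibility gene with close copies, rose from 3.35 and 9.64 to 123 and 356 but was not called without F4 (adjusted p = 0.0637), and the uncharacterised D730048I06Rik from 2.02 and 1.65 to 170 and 329.

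Among the 15 largest falls, Muc4, a membrane mucin, was at 30.1 and 25.4 scaled CPM in F4 and B4 and at 1.95 and 0.908 in F11 and D6 (log2 change -4.40 ± 0.34, adjusted p = 0.0012). Aqp3, a water and glycerol channel, fell from 60 and 99 to 10.2 and 12.6 (log2 change -2.79 ± 0.30), and the carbonic anhydrase Car4 from 36.6 and 66.9 to 8.69 and 5.45. Both had been lower at day 12.5, with Aqp3 at 10.5 and 12.4 and Car4 at 0.323 and 0.339, so day 18.5 was the highest of the 3 stages for them. Tchh, trichohyalin, was likewise at 7.04 and 7.66 at day 12.5, 43.4 and 15.5 at day 18.5 and 2.1 and 1.74 in lactation. Rgs16, a regulator of G protein signalling, fell from 47.1 and 43.6 to 4.65 and 5.22. Muc4, Aqp3, Car4, Tchh, Rgs16, Gjb6 and Frat2 were above both other cell classes in F4 and B4 and were called in all 18 alternative fits. Fmod, Spon2, Igfbp2, Emid1 and Il17b were higher in basal cells, as in Il17b with 81.3 and 67.8 scaled CPM against 1501 and 1602 CPM.

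**Figure D5:**
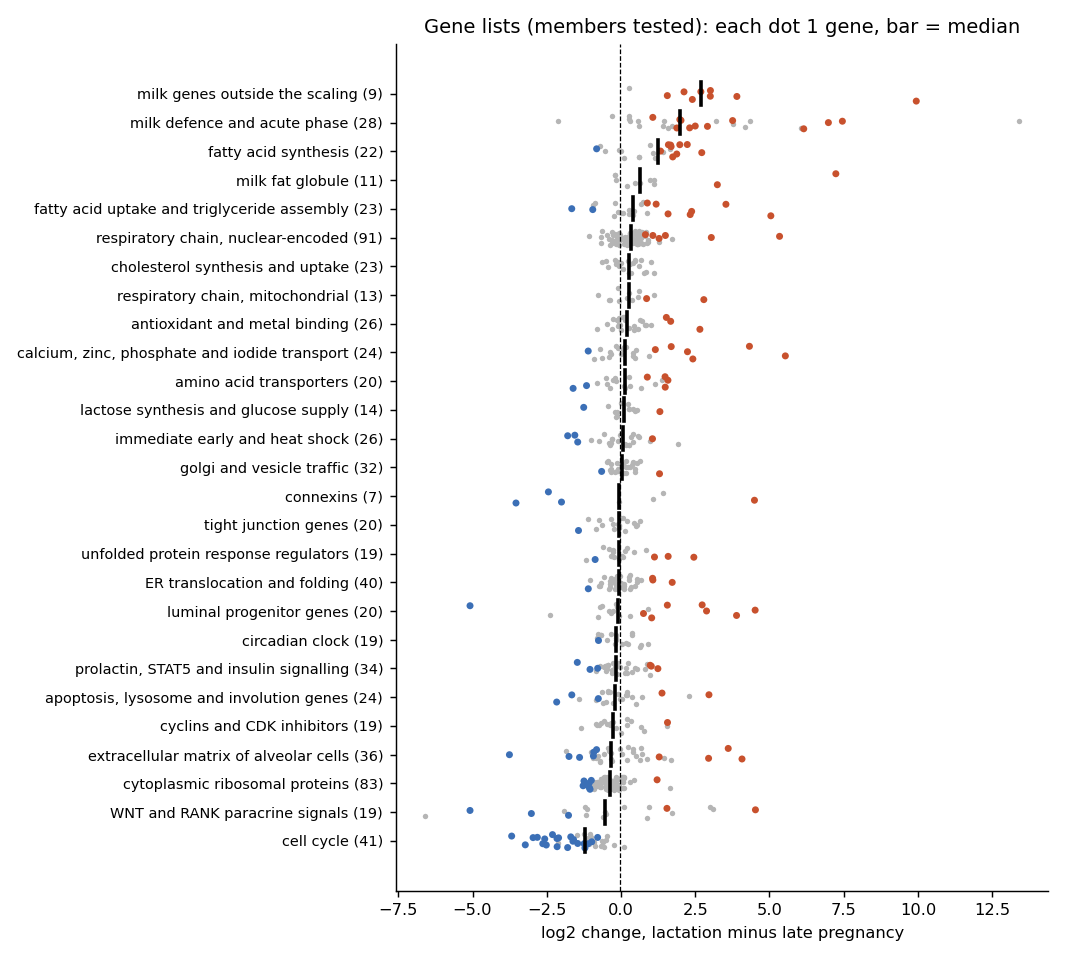
Log2 change from late pregnancy to lactation (horizontal axis) of every tested member of each gene list, ordered by the list's median (black bar). Coloured dots are genes called at an adjusted p under 0.05, orange higher and blue lower, and the dashed line is the median of all genes: the milk, defence and fatty acid synthesis lists lie to the right with medians of 2.69, 2 and 1.24, and the cell cycle list to the left at -1.21. The defence median was 0.79 without F11 and that of fatty acid synthesis 0.22 without D6.

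The genes that chose the cells are given as a description only. Mfge8, a milk fat globule protein, was at 2275 and 2880 scaled CPM in F4 and B4 and at 4837 and 6106 in F11 and D6. Trf, transferrin, was at 17678 and 22931 against 16689 and 33880, Btn1a1, butyrophilin, at 763 and 987 against 912 and 2275, and Xdh, xanthine dehydrogenase, at 187 and 251 against 280 and 517. Elf5, the transcription factor of alveolar fate, was at 444 and 403 against 282 and 376.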

How the data were processed

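Droplet single-cell RNA-seq libraries (10x Chromium, 3′ protocol) of FVB/NJ mammary epithelium were analysed. The deposited values are whole-number counts of UMIs for each gene in each barcode. The file headers name Cell Ranger 3.0.2, and the submitters' processing notes name version 3.1.0, edgeR and mm10. No doublet caller was run here, and cells of very high counts were left out only as an alternative. Counts of the chosen cells were summed per library, which held 7137953 (F11), 14402598 (D6), 20195012 (B4) and 27888351 (F4) UMIs outside the 9 milk genes. The 4 libraries and both day 12.5 libraries were fitted by stage with edgeR 4.0.16 (R 4.3.3, limma 3.58.1), using filterByExpr, TMM on counts outside the milk genes and glmQLFTest, with Benjamini-Hochberg adjustment over 13811 genes. Library replication covers pooled animals only. The p-values set the stage difference against a spread between libraries estimated over all stages fitted (common coefficient of biological variation 22.3%). That spread is not the one between F11 and D6 alone. Each SE of a log2 change was derived from the test, as its absolute value divided by the square root of the F statistic. It is thus not an estimate separate from the p-value. The study's texts give more than 1 pool size. Non-epithelial cells were those with 5 or more UMIs of immune, endothelial and fibroblast markers and more of these than of the 4 keratins, and basal cells those with 5 or more UMIs of Krt5 and Krt14, more than of Krt8 and Krt18, and under 5 of those markers. The non-epithelial class was not kept apart from the alveolar class. Of its cells, 71 of 325 in F11, 124 of 1667 in D6, 13 of 117 in F4 and 14 of 132 in B4 counted in both.

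In data simulated for this comparison on 13521 genes, the test recovered 26% of 2-fold and 99% of 4-fold changes and called 3 unchanged genes. The changed genes were drawn above a minimum level, and each gene was given the usual spread of its level, equal in all stages. These shares therefore do not cover genes whose libraries of a stage lie far apart. In the real data Saa3, with a log2 change of 6.08, was not called (edgeR adjusted p = 0.079). Named genes were the 15 rises and 15 falls of largest log2 change that were called, did not overlap between stages and reached a mean of 20 scaled CPM in the higher stage, and, in each list, the called members of largest change with members that define the list. Members and lists were chosen with earlier results of these data known. The ribosomal list was corrected for unrelated symbols, and the comparison with other cells added, after seeing the data. Genes that chose the cells stayed in the fit and in its counts over all genes, and their own values are given as a description, and a few members counted in the lists are not reported here by name. DESeq2 1.42.0 was an alternative. Counting intervals and floors (3 UMIs) cover counting error only.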

Additional observations from a re-analysis of the deposited data

How the results depend on the processing

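Over all genes, the 1783 calls became 3294 with no filter on low counts, 2329 with DESeq2 (1460 higher, 869 lower), 2060 without TMM factors, 910 with only the 4 libraries compared, 408 with 3 adult libraries added, 1279 in cells with at least 1000 genes, 409 without cells with other-cell markers and 632 when only genes above other cells were counted, an alternative chosen after seeing the data. The 141 calls among list members became 250, 203, 154, 80, 28, 91 and 57 under the first 7 of these. Leaving out 1 library gave 286 to 2908 calls over all genes and 33 to 217 among list members, the lowest without F4 and the highest without F11; B4 left 312 and 38. A stage left with 1 library was assumed to vary like the others. The stage difference in milk gene share of counts, per library, 41.8 percentage points, was 38.75 in cells with at least 1000 genes, 32.1 without cells with other-cell markers, and 39.93 to 43.68 without 1 library. Of the called genes tracked by name, Fn1 reversed, to a log2 change of -0.5504, without cells with other-cell markers, 34 of 177 kept their call in every alternative that could be fitted, and losses of the call in the others numbered 756. The causes of these shifts were not tested. In simulated data most 2-fold changes were missed, so a gene that was not called may still differ. No paired analysis was possible because the library names in the labels do not recur between stages.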

Other observations

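The lactation libraries also stood far apart in several genes not named in the comparison of stages. Calca, the gene of calcitonin and its related peptide, was at 166 scaled CPM in F11 and 1.51 in D6, and at 119 and 120 in F4 and B4. The glycoprotein gene Chil1 was at 97.1 in F11 and 2.19 in D6, beside 4.15 and 6.58 in F4 and B4. The haemoglobin-binding Hp, called higher in lactation (edgeR adjusted p = 0.0319), was at 167 and 12.6, beside 4.11 and 2.52. Angptl4, an inhibitor of lipoprotein lipase, was at 213 in F11 and 15.7 in D6, beside 113 and 137 in F4 and B4. In the other direction, the heat shock genes Hspa1a and Hspa1b were at 119 and 24.7 in F11 and at 555 and 191 in D6, Vegfa, an angiogenic factor, at 31 and 158, and Sqle and Msmo1, enzymes of cholesterol synthesis, at 29.8 and 14.1 in F11 and at 106 and 57.1 in D6. With 1 library on each side these differences had no replicate check.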
